A study of Mus musculus with 16 samples.

Results

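Expression of the Fc gamma receptors was examined in mouse footpad epidermis through 5 genes, Fcgr1, Fcgr3, Fcgr4, Fcgr2b and Fcer1g, out of 50600 genes in the count table. The family was chosen on its papain response, since Fcgr4 was among the genes with the largest papain rises, so the papain comparisons of these genes are given as a description with no test. Fcgr4 is given without a test throughout. All 5 genes were found by symbol, and all 5 passed the minimum of 10 counts summed over the 16 libraries that left 22155 genes tested.

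Female C57/B6J mice received from 5 wk of age a purified diet poor in ligands of the aryl hydrocarbon receptor (AhR-poor diet), or the I3C diet, to which 200 ppm of indole-3-carbinol had been added, and were injected after 3 wk. Footpads received 50 μl of PBS (vehicle), or with 50 μg of the protease allergen papain in PBS, and epidermal cells were collected after 6 hr for RNA sequencing. There were 4 groups of 4 mice, with 1 library a mouse. Mice on 1 diet shared a cage, so that diet and cage cannot be told apart. Dispase was used to separate the epidermis, and dead cells were removed. No cell type was sorted, so the libraries hold whatever cells the epidermal preparation held. By flow cytometry the paper found these to be mainly keratinocytes, with some dead cells left.

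Library totals ranged from 22500821 to 51844375 counts. A count of 3 was taken as the detection floor, and it equalled 0.0569 to 0.130 CPM (counts over the scaled library size, with TMM factors) depending on the library, which covers counting error only. The 6 keratinocyte markers listed summed to 40584 to 66022 CPM in the 16 libraries, and none of them was called in any comparison. Differences under the fold threshold were present. Between diets with papain, Dsp and Trp63 were at -0.62 and -0.39 on the log2 scale (edgeR, adjusted p = 0.00359 and 0.00857), while 3 of the 6 were above 0. Krt5 was at -0.48 with papain on the I3C diet (edgeR, adjusted p = 0.00101). Library T106, from the I3C papain group, had the highest level of each of the 5 genes in its group, so results that rest on it are also given without it.

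Fc gamma receptors bind the constant part of IgG and are carried mainly by myeloid cells, with Langerhans cells, macrophages, neutrophils and mast cells among the carriers in skin. The mouse has activating receptors, Fcgr1 (high affinity), Fcgr3 and Fcgr4, which pair with the common Fc chain encoded by Fcer1g, and 1 inhibitory receptor, Fcgr2b. The common chain carries an activating motif (ITAM) that recruits the kinase Syk, and it also serves the IgE receptor of mast cells and several lectin receptors. Fcgr2b carries an inhibitory motif (ITIM) in its own tail and recruits the lipid phosphatase SHIP1, encoded by Inpp5d. The balance of activating and inhibitory receptors is known to set how a myeloid cell responds to immune complexes.

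On GRCm38, Fcgr2b lies at chr1:170958617-170976547, Fcgr4 at chr1:171018920-171029761, Fcgr3 at chr1:171051174-171064935 and Fcer1g at chr1:171229572-171234365, so that these 4 genes stand within 275.7 kb of chromosome 1. Fcgr1 lies apart at chr3:96282909-96293969. Fcgr4 is on the plus strand and the others are on the minus strand. Fcgr2b and Fcgr3 are close relatives, and of the 1733 words of 100 bases in the Fcgr3 transcripts 44 (2.54%) also occurred in Fcgr2b. Reads from those words could have been counted on either gene. Fcgr2b also shares 155 of its 5790 exonic bases with Gm38204 on the opposite strand, and the strand setting of the counting is not given in the sources used here. None of the words of Fcgr1, Fcgr4 or Fcer1g occurred in another gene.

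The promoters of 4 genes whose levels differed most between the diets with papain are shown, as 250 bases before to 50 bases after the start given by RefSeq on GRCm38.p6. Each is written 5′ to 3′ on the strand of its gene, with motif matches in capitals. Windows were found for all 5 genes, and Fcgr3 had another, overlapping window with the same matches.
Fcgr4, chr1:171018676-171018975, plus strand: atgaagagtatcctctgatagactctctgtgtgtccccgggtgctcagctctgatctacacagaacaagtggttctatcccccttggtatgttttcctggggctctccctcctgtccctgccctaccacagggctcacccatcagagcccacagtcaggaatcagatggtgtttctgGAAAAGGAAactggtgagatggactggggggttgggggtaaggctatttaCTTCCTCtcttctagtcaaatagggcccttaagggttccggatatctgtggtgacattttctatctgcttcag
Fcgr1, chr3:96293920-96294219, minus strand: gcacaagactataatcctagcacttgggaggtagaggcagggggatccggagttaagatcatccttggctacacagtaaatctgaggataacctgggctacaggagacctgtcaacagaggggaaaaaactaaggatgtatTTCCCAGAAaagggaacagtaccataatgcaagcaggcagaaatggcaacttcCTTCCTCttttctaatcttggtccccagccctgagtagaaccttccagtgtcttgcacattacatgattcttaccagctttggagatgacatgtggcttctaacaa
Fcgr3, chr1:171059354-171059653, minus strand: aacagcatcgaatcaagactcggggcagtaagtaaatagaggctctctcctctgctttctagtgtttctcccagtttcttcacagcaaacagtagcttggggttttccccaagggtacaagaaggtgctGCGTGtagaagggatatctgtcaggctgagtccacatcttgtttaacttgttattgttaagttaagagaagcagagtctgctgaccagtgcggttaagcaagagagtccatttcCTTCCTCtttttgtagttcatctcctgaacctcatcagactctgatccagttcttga
Fcer1g, chr1:171234300-171234599, minus strand: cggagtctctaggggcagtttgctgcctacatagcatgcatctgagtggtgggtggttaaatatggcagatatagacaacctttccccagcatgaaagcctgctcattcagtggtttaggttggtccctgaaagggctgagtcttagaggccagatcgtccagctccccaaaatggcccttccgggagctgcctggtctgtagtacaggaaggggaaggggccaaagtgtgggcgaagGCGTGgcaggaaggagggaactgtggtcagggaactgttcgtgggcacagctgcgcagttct
The motifs searched on both strands were GCGTG (the core of the site bound by AhR, 32.4% of the 32851 promoter windows), TTCNNNGAA (the interferon-gamma activated site, 8.30%), GAGGAAG (a site of the myeloid factor PU.1, 13.6%) and GAAANNGAA (the core of the interferon-stimulated response element, 8.56%). The Fcgr4 window held GAAAAGGAA at -73 and the PU.1 letters in reverse, CTTCCTC, at -23, counted as the first base of the match from the start. The Fcgr1 window held TTCCCAGAA at -109 and CTTCCTC at -56. Fcgr3 held GCGTG at -121 and CTTCCTC at -7, and Fcer1g held GCGTG at -12. The Fcgr2b window held none of the 4 motifs, which says only that these letters are not in this window.

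Fcgr4, an activating receptor for IgG2a, IgG2b and IgG2c carried by monocytes, macrophages and neutrophils, was detected almost entirely in the AhR-poor papain group. There it had 132 counts in T104 (3.25 CPM), 431 in T105 (8.18 CPM), 71 in T107 (3.07 CPM) and 22 in T112 (0.598 CPM), a mean of 3.77 ± 3.17 CPM (SD, n = 4). With papain on the I3C diet it had 12 counts in T106 (0.292 CPM) and 0 in the 3 other libraries. All 8 vehicle libraries were at 0. Thus every AhR-poor papain library was above the highest of the I3C papain group. Its level with papain was at least 47.8-fold higher than with vehicle on the AhR-poor diet, against the floor of 3 counts per library, and at least 29.2-fold higher without T105. The ratio of the mean levels between diets with papain was 51.6, and 31.6 without T105. The I3C papain mean of 0.0731 CPM rests on T106 and was under the mean floor of that group, 0.0824 CPM, so the size of these ratios is uncertain. Without T106 the I3C papain libraries were all at 0, and the level on the AhR-poor diet was at least 45.8-fold higher.

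**Figure D1:**
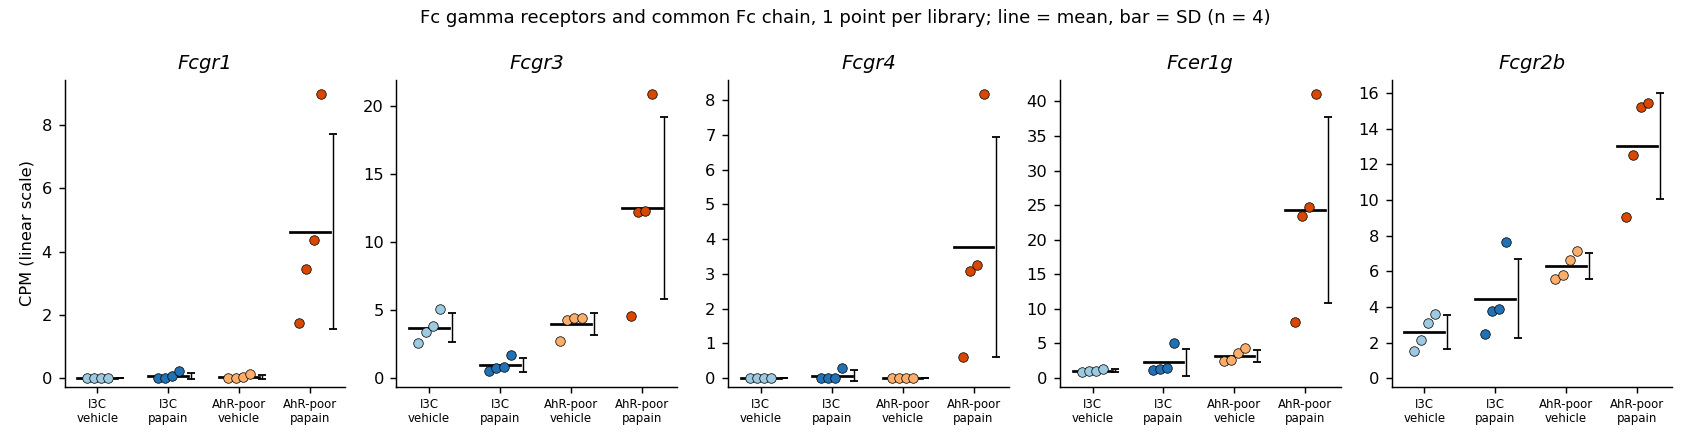
Level of each gene in CPM (linear scale, a separate y axis for each gene) in the 4 groups, 1 point per library, with the mean as a line and the SD as a bar (n = 4). The AhR-poor papain libraries are the highest of each panel for Fcgr1, Fcgr4, Fcer1g and Fcgr2b, while for Fcgr3 the lowest of them, 4.54 CPM, lies among the vehicle libraries.

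Fcgr1, the high-affinity receptor for IgG2a and IgG2c found on monocytes, macrophages and some dendritic cells, had a similar distribution. In the AhR-poor papain group it measured 4.36 CPM in T104, 8.99 in T105, 3.46 in T107 and 1.74 in T112, a mean of 4.64 ± 3.10 CPM (SD, n = 4). In the I3C papain group it measured 0.219 CPM in T106 (9 counts) and 0.0641 in T113 (2 counts), and was at 0 in T114 and T115. All AhR-poor papain libraries were above all I3C papain libraries. The difference between diets with papain was 5.92 ± 0.83 on the log2 scale (SE, edgeR quasi-likelihood test with Benjamini-Hochberg adjustment, adjusted p = 3.17e-04), and 7.72 without T106. The I3C papain mean of 0.0708 ± 0.103 CPM was under the mean floor of that group, 0.0824 CPM, so the size of this difference is uncertain. With vehicle, the AhR-poor libraries T100 and T101 had 5 counts (0.136 CPM) and 1 count (0.0265 CPM), and the other 6 vehicle libraries were at 0, so that no fold is given between the diets. The AhR-poor vehicle mean of 0.0407 ± 0.0649 CPM was under the mean floor of that group, 0.0790 CPM, so that no fold of papain over vehicle is given either.

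Fcgr3, a low-affinity activating receptor carried by macrophages, neutrophils, mast cells and Langerhans cells, was present in every library and differed in opposite directions with papain on the 2 diets. On the AhR-poor diet it measured 2.72 CPM in T100, 4.42 in T101, 4.30 in T102 and 4.40 in T103 with vehicle, and 12.2 in T104, 20.9 in T105, 12.2 in T107 and 4.54 in T112 with papain. On the I3C diet it measured 3.82 CPM in T108, 3.39 in T109, 5.06 in T110 and 2.58 in T111 with vehicle, and 1.71 in T106, 0.545 in T113, 0.799 in T114 and 0.746 in T115 with papain. The libraries of the 2 treatments did not overlap on either diet, although T112 was close to the AhR-poor vehicle libraries. The share of all genes separated in this way was not computed. Papain against vehicle, as a description, was 1.66 ± 0.38 on the log2 scale (SE) on the AhR-poor diet and -1.94 ± 0.43 on the I3C diet, where it was -2.41 without T106.

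The vehicle groups of the 2 diets overlapped in Fcgr3, with means of 3.96 ± 0.826 CPM on the AhR-poor diet and 3.71 ± 1.03 CPM on the I3C diet (SD, n = 4), and the difference was 0.09 ± 0.39 on the log2 scale (SE, edgeR, adjusted p = 0.972). With papain, the means were 12.5 ± 6.69 and 0.949 ± 0.516 CPM, and the difference of 3.70 ± 0.44 passed the test (adjusted p = 2.60e-05). The interaction of diet and treatment, which tests whether the diet difference changed with papain, was 3.60 ± 0.58 on the log2 scale with an adjusted p of 0.0213, above the threshold of 0.01. The adjusted p was 3.44e-04 without T112 and 0.00492 without T106, it reached 0.0648 when other single libraries were left out, and DESeq2 gave 1.76e-08.

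Fcer1g, the common Fc chain, was low with vehicle and high with papain on the AhR-poor diet. With papain it measured 24.7 CPM in T104, 41.1 in T105, 23.4 in T107 and 8.13 in T112 on the AhR-poor diet, and 5.12 in T106, 1.48 in T113, 1.26 in T114 and 1.17 in T115 on the I3C diet. The diets did not overlap. Their means of 24.3 ± 13.5 and 2.25 ± 1.91 CPM (SD, n = 4) differed by 3.42 ± 0.52 on the log2 scale (SE, edgeR, adjusted p = 3.65e-04), and by 4.24 without T106. In a fit of only these 8 libraries the adjusted p was 0.0126 and the call was lost.

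With vehicle, Fcer1g measured 4.28 CPM in T100, 2.54 in T101, 3.61 in T102 and 2.49 in T103 on the AhR-poor diet, and 1.06 in T108, 1.07 in T109, 0.871 in T110 and 1.35 in T111 on the I3C diet. Again every AhR-poor library was above every I3C library, and the exact permutation test of the 4 against 4 libraries gave p = 0.0286, the smallest it can give. Across all genes the difference of 1.57 ± 0.55 on the log2 scale did not pass the edgeR test (adjusted p = 0.203), while a fit of only the 8 vehicle libraries called it (adjusted p = 0.00158). The interaction, 1.85 ± 0.75, did not pass either (adjusted p = 0.314). Papain against vehicle was 2.91 ± 0.51 on the AhR-poor diet and 1.07 ± 0.56 on the I3C diet, as a description, and the latter was 0.25 without T106.

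Fcgr2b, the inhibitory receptor, was higher in every AhR-poor than in every I3C library with either injection and showed the smallest papain difference of the 5 genes on the AhR-poor diet. With papain it measured 12.5 CPM in T104, 15.2 in T105, 15.4 in T107 and 9.03 in T112 on the AhR-poor diet, and 7.65 in T106, 3.91 in T113, 3.80 in T114 and 2.51 in T115 on the I3C diet. The diets did not overlap, although T106 came close to T112. The difference was 1.54 ± 0.30 on the log2 scale (SE, edgeR, adjusted p = 0.00139). A fit of only these 8 libraries gave an adjusted p of 0.0113 and lost the call.

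In the vehicle groups Fcgr2b measured 5.80 CPM in T100, 6.64 in T101, 5.56 in T102 and 7.13 in T103 on the AhR-poor diet, and 2.12 in T108, 3.11 in T109, 1.55 in T110 and 3.60 in T111 on the I3C diet. These groups did not overlap either (exact permutation test, p = 0.0286), and their means were 6.29 ± 0.731 and 2.60 ± 0.929 CPM (SD, n = 4). The log2 difference of 1.28 ± 0.31 had an adjusted p of 0.0275 with edgeR, which was 0.00359 without T106. It was called in a fit of only the 8 vehicle libraries (adjusted p = 0.00520) and by DESeq2 (adjusted p = 0.001004). The interaction was 0.26 ± 0.42 (adjusted p = 0.830). Papain against vehicle was 1.05 ± 0.29 on the AhR-poor diet and 0.79 ± 0.31 on the I3C diet, as a description.

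**Figure D2:**
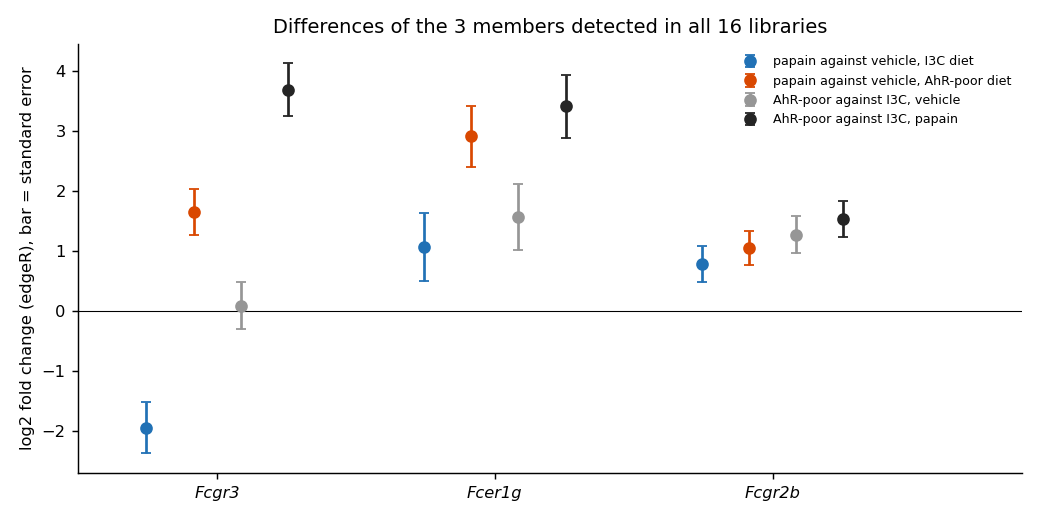
Log2 fold changes from edgeR with their SE (bars) for the 3 genes detected in all 16 libraries, for papain against vehicle on each diet and for the difference between diets with each injection. Fcgr3 is at -1.94 with papain on the I3C diet and at 1.66 on the AhR-poor diet, while the 4 values of Fcgr2b lie between 0.79 and 1.54.

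Of the 4 genes open to a test, all 4 were called higher on the AhR-poor diet with papain (log2 fold change over 1, with an adjusted p under 0.01), when 7.15% of the genes tested were called in that direction. This comparison shares the AhR-poor papain libraries in which Fcgr4 chose the family. The AhR-poor libraries were all above the I3C libraries in the same 4 of 4 genes, against 12.5% of all genes, and the exact permutation test gave p = 0.0286 for each of Fcgr1, Fcgr2b, Fcgr3 and Fcer1g. With vehicle, edgeR called 0 of the 4 (1.59% of all genes higher), 2 had an unadjusted p below 0.05, and DESeq2 called 1, Fcgr2b. The libraries did not overlap in 2 of the 4, Fcgr2b and Fcer1g, against 6.45% of all genes. For the interaction, edgeR called 0 of the 4 (0.0181% of all genes higher), 2 had an unadjusted p below 0.05, and DESeq2 called 1, Fcgr3.

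In the papain comparisons, which chose the family and from which nothing is read, 5 of 5 genes had a log2 difference above 0 on the AhR-poor diet. On the I3C diet 4 of 5 did, with Fcgr1 and Fcgr4 near the floor, and Fcgr3 was lower. The median log2 difference over the 5 genes was 3.70 between diets with papain and 1.28 with vehicle, beside 0.01 and -0.01 over all genes tested. The median with papain includes Fcgr4, which chose the family. That with vehicle includes Fcgr4 and Fcgr1, at or near the floor, so nothing is read from these medians either.

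Levels of different genes were compared per kb of exon. In the AhR-poor papain group Fcer1g was the highest, at 27.8 ± 15.4 CPM per kb (SD, n = 4), followed by Fcgr3 at 7.19 ± 3.85, Fcgr4 at 3.01 ± 2.53, Fcgr2b at 2.25 ± 0.515 and Fcgr1 at 1.79 ± 1.20. The ranges of each pair of neighbours in that order overlapped. In the AhR-poor vehicle group the order was Fcer1g at 3.70 ± 0.992, Fcgr3 at 2.28 ± 0.476 and Fcgr2b at 1.09 ± 0.126 CPM per kb, with no overlap between neighbours. In the I3C vehicle group Fcgr3 came first, at 2.14 ± 0.596 CPM per kb, with Fcer1g at 1.25 ± 0.226, and these overlapped at 1.49 and 1.55, while Fcgr2b was lower than both at 0.449 ± 0.161. In the I3C papain group Fcer1g led at 2.58 ± 2.19, and Fcgr2b at 0.772 ± 0.382 and Fcgr3 at 0.547 ± 0.297 overlapped with each other and lay under every Fcer1g value.

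Ratios within a library, chosen after the levels had been seen and so given without a test, compared the activating and inhibitory receptors. The ratio of Fcgr3 to Fcgr2b per kb had a median of 4.82 in the I3C vehicle group (2.39 to 10.9), 2.14 in the AhR-poor vehicle group (1.57 to 2.58) and 2.96 in the AhR-poor papain group (1.68 to 4.59). In the I3C papain group it was 0.723 (0.465 to 0.991). Only there was the inhibitory receptor the higher of the pair per kb, in 4 of 4 libraries. This order depends on the exonic lengths (5790 bases for Fcgr2b and 1736 for Fcgr3), since in CPM Fcgr2b was above Fcgr3 in 4 of 4 I3C papain, 4 of 4 AhR-poor vehicle, 3 of 4 AhR-poor papain and 1 of 4 I3C vehicle libraries. With Fcgr1 and Fcgr4 added to Fcgr3, the ratio of the activating receptors to Fcgr2b was 4.66 in the AhR-poor papain group (2.41 to 8.39) and 0.843 in the I3C papain group (0.501 to 0.991). Fcgr2b to Fcer1g was 0.0879 in the AhR-poor papain group (0.0558 to 0.168), under the range of every other group, whose lowest library was at 0.205. Fcgr3 to Fcer1g was nearly constant with papain on the AhR-poor diet, at 0.250 to 0.281 (median 0.260), and the I3C papain group had a like median of 0.253 (0.168 to 0.321). It was 0.738 (0.321 to 0.888) in the AhR-poor vehicle group and 1.70 (0.962 to 2.93) in the I3C vehicle group.

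**Figure D3:**
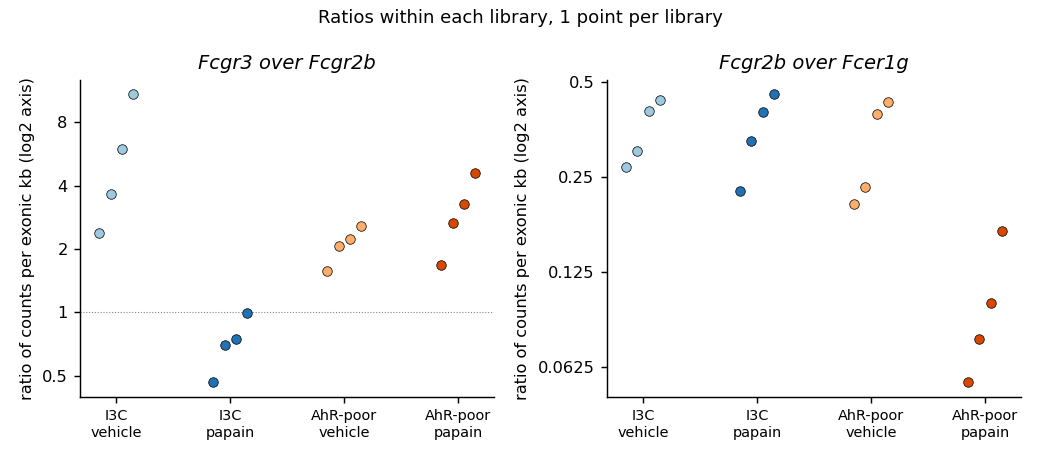
Ratio of Fcgr3 to Fcgr2b (left) and of Fcgr2b to Fcer1g (right) in counts per exonic kb within each library, on log2 axes, 1 point per library and spread in order of value within each group. The I3C papain libraries are the only ones under a Fcgr3 to Fcgr2b ratio of 1, at 0.465 to 0.991, and the AhR-poor papain libraries have the lowest Fcgr2b to Fcer1g ratios, at 0.0558 to 0.168.

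Genes that act around these receptors were taken from hand-written lists. Of all genes tested, 7.15% were called higher on the AhR-poor diet with papain and 1.59% with vehicle. The counts of each list between diets stand beside these shares. With papain, the AhR-poor diet gave higher levels of 13 of 25 genes of activating Fc gamma signalling and lower levels of 0, and the median log2 difference was 1.12. Rac2, a GTPase of phagocytes, measured 16.4 ± 9.19 CPM on the AhR-poor diet and 1.05 ± 0.499 on the I3C diet (SD, n = 4), a difference of 3.96 ± 0.44 on the log2 scale (SE, edgeR, adjusted p = 1.65e-05). Lyn, a Src family kinase that phosphorylates the ITAM, differed by 3.38 ± 0.39 and the adaptor Lcp2 (SLP-76) by 3.06 ± 0.45. Syk itself was not called, at 73.1 ± 26.4 and 46.9 ± 9.89 CPM and a log2 difference of 0.64 ± 0.21 (adjusted p = 0.0411). Its level with vehicle was 15.8 ± 1.64 CPM on the AhR-poor diet and 15.6 ± 2.03 on the I3C diet, and papain against vehicle was 2.21 on the AhR-poor diet and 1.58 on the I3C diet on the log2 scale. Syk is also expressed in cells that lack Fc receptors.

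Of the inhibitory signalling genes, 4 of 10 were called higher and 0 lower, with a median of 0.53. Inpp5d, which encodes the phosphatase used by Fcgr2b, was higher by 1.82 ± 0.30 on the log2 scale (adjusted p = 4.57e-04), at 17.5 ± 7.75 and 4.96 ± 1.61 CPM (SD, n = 4). Of the docking adaptors downstream of it, Dok1, Dok2 and Dok3 differed by 2.22, 2.77 and 2.09. With vehicle, Dok3 was the 1 gene of 10 called, at 4.92 ± 0.442 CPM on the AhR-poor diet and 1.87 ± 0.641 on the I3C diet (edgeR, adjusted p = 0.00894), and 0 of 25 activating genes were called.

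All 5 subunits of the phagocyte NADPH oxidase, the enzyme that makes superoxide when Fc receptors are engaged, were called higher with papain on the AhR-poor diet. Cybb, its catalytic subunit, measured 9.75 ± 6.51 CPM on the AhR-poor diet and 0.137 ± 0.178 on the I3C diet (SD, n = 4), a log2 difference of 6.09 ± 0.66 (SE, edgeR, adjusted p = 1.29e-05). Ncf1, a cytosolic subunit, differed by 3.63 and the membrane subunit Cyba by 3.49. With vehicle, Cybb was the 1 gene of 5 called, at 0.762 ± 0.156 CPM on the AhR-poor diet and 0.0143 ± 0.0166 on the I3C diet (adjusted p = 0.00830).

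Other receptors that signal through the common Fc chain were higher with papain on the AhR-poor diet in 6 of 8 genes tested, with a median of 4.28. Clec4e (Mincle), a receptor for glycolipids and dead cells, reached 94.6 ± 74.4 CPM on the AhR-poor diet against 1.42 ± 1.58 on the I3C diet (SD, n = 4), a log2 difference of 6.03 ± 0.74 (SE, edgeR, adjusted p = 8.16e-05). Clec4d, its partner lectin, differed by 6.31 and Cd300ld by 5.55. Of the 3 adaptor chains, Tyrobp (DAP12), which carries an ITAM like the common chain, differed by 3.81 ± 0.50 (adjusted p = 1.04e-04) and Cd247 by 1.43, and Hcst was not called. With vehicle, 0 of the 8 receptors and 0 of the 3 chains were called.

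Of the 12 other Fc receptors tested, 5 were called higher between diets with papain and 0 with vehicle. Fcgrt, the neonatal Fc receptor that recycles IgG, measured 6.33 ± 0.461 CPM on the AhR-poor diet and 1.63 ± 0.641 on the I3C diet with papain (SD, n = 4), a log2 difference of 1.95 ± 0.22 (edgeR, adjusted p = 6.14e-06). Its vehicle levels were 7.90 ± 1.91 and 5.67 ± 0.513 CPM, so that the lowest group was the I3C papain group, as for Fcgr3. The 4 other genes called were at low levels. Fcer1a and Ms4a2, subunits of the IgE receptor, averaged 0.150 and 0.156 CPM in the AhR-poor papain group and were at 0 in all I3C libraries, and Fcrl1 and Fcrlb averaged 0.291 and 0.706 CPM against 0.0376 and 0.229. Fcer1a and Ms4a2 passed the minimum count through the AhR-poor libraries alone, so that a higher level there was bound to follow, and their calls add nothing to the count of 5.

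Among 14 known regulators of Fc gamma receptor genes, 4 were called higher between diets with papain and 0 with vehicle. C5ar1, the receptor for the complement fragment C5a, which is known to shift the balance towards activating receptors, measured 25.1 ± 17.5 and 0.404 ± 0.576 CPM (SD, n = 4), a difference of 5.90 ± 0.81 on the log2 scale (SE, edgeR, adjusted p = 1.62e-04). Il10 differed by 2.82, and the myeloid transcription factors Irf8 and Spi1 (PU.1) by 1.55 and 1.53. Ifngr1, a chain of the receptor for interferon-gamma, which is known to induce Fcgr1 and Fcgr4, was not among them. With papain Ifngr1, 1 of the 10 regulators not called, measured 93.3 ± 2.84 CPM on the AhR-poor diet and 104.1 ± 12.5 on the I3C diet (SD, n = 4). The part of interferon-gamma in the levels of Fcgr1 and Fcgr4 was not tested.

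Of the ligands, 4 of 10 immunoglobulin chain genes passed the minimum count, and all 4 IgG heavy chain genes listed (Ighg1, Ighg2b, Ighg2c and Ighg3) had under 10 counts over the 16 libraries. Igkc, the kappa light chain, was called higher on the AhR-poor diet with either injection, at 0.477 ± 0.0671 CPM with vehicle and 0.668 ± 0.601 with papain, while the I3C libraries held at most 1 count, so that it passed the minimum count through the AhR-poor libraries. Ighm was called with papain only, at 3.45 ± 2.21 CPM against 0.648 ± 0.670 (edgeR, adjusted p = 0.00706). Its vehicle levels, not called, were also apart, at 2.80 ± 0.761 CPM on the AhR-poor diet and 0.821 ± 0.261 on the I3C diet. A change of the diet difference of Ighm between the injections was not called by the interaction test, which called 0 genes of any of these lists.

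**Figure D4:**
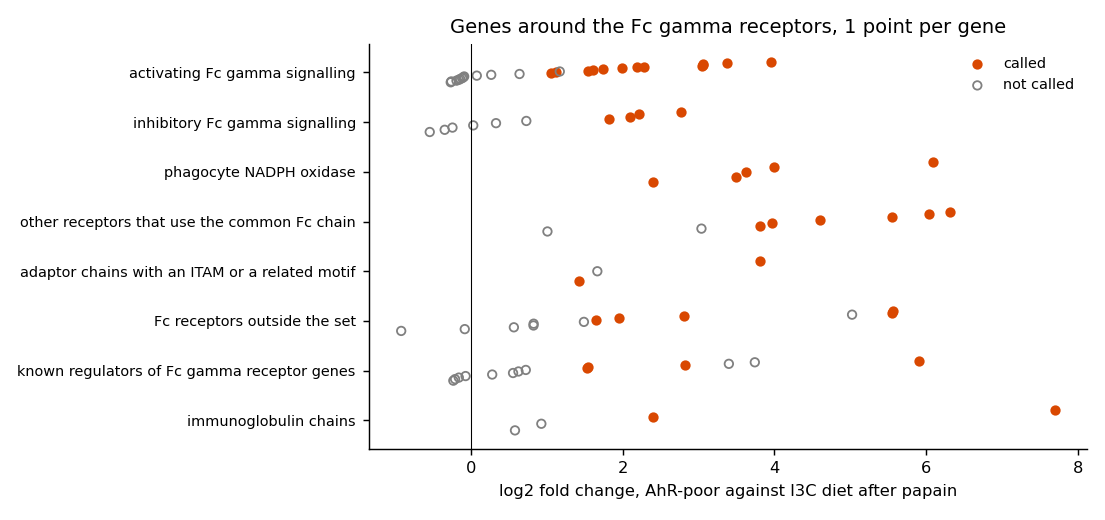
Log2 fold change with papain, AhR-poor over I3C diet, for each tested gene of the 8 lists, 1 point per gene, filled where called. None of the genes called lies under 0, and the oxidase (5 of 5 called, median 3.63) and the other receptors of the common Fc chain (6 of 8 called, median 4.28) have the highest medians of the 8 lists.

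The papain response of these lists is given for each diet as a description, and the counts of the 2 diets were not tested against each other. On the AhR-poor diet 7 of 25 activating, 3 of 10 inhibitory, 5 of 5 oxidase and 6 of 8 other Fc chain receptor genes passed the thresholds as higher. The share of all genes was 6.04%. On the I3C diet those counts were 1 of 25 (Syk), 0 of 10, 0 of 5 and 0 of 8, with Gab2 lower among the activating genes. Of all genes, 3.69% passed as higher and 5.29% as lower on that diet. Ifngr1 and Spi1 passed as higher on either diet.

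Since these are bulk libraries, fewer cells of a type and less RNA per cell cannot be told apart, and markers of the cells that carry Fc gamma receptors were summed in each library. The 14 monocyte and macrophage markers summed to 138 to 604 CPM in the AhR-poor papain group and to 13.3 to 46.9 in the I3C papain group. Of these, 13 of 14 were called higher on the AhR-poor diet (7.15% of all genes). Ms4a7 had at most 1 count in any I3C library and passed the minimum count through the AhR-poor libraries, so a call of it would add nothing. With vehicle the 14 markers summed to 55.8 to 68.7 and 20.3 to 29.4 CPM, and 6 of 14 were called (1.59% of all genes). Their sum was lowest in T112 and highest in T105 within the AhR-poor papain group, and highest in T106 within the I3C papain group, as were Fcgr1, Fcgr3, Fcgr4 and Fcer1g. The part of these cells in the receptor differences was not tested.

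Of the 12 neutrophil markers 11 passed the minimum count, and 8 were called higher on the AhR-poor diet with papain (7.15% of all genes). The 12 summed to 105.3 to 459 CPM there, against 36.4 to 66.3 on the I3C diet. Il1r2 made up most of that sum with vehicle, and without it, a choice made after the values were seen, the other 11 summed to 51.1 to 285 CPM in the AhR-poor papain group, 20.6 to 29.6 in the I3C papain group, 2.34 to 2.94 in the AhR-poor vehicle group and 0.546 to 0.991 in the I3C vehicle group. Ly6g, a defining neutrophil marker, was at 0 in all 12 libraries outside the AhR-poor papain group. It passed the minimum count through that group alone, so that a higher level there was bound to follow. Camp, Ltf and Ngp had at most 1 count in any I3C library and passed through the AhR-poor libraries. A higher level on the AhR-poor diet was bound to follow for them too, so calls of such genes add nothing to the count of 8. In the I3C papain group 1 gene, Cxcr2, made up nearly all of the sum without Il1r2, at 19.3 to 29.5 CPM against 0.517 to 0.898 with vehicle. Csf3r and Trem1 averaged 0.739 and 0.575 CPM there, against 0.0271 and 0.0214 with vehicle. Mmp8, Retnlg and Stfa2l1 averaged 0.108, 0.0891 and 0.108 CPM, against 0, 0.00680 and 0.0136. Il1r2 itself was lower there, at 14.9 to 38.5 CPM against 54.0 to 74.0, and Ly6g and Camp were at 0 in both I3C groups. Ltf, Ngp and Mpo averaged at most 0.0193 CPM in either I3C group. The part of neutrophils in the receptor differences was not tested.

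The 8 Langerhans cell markers summed to 738 to 838 CPM with vehicle and 725 to 945 with papain on the AhR-poor diet, and to 187 to 455 and 193 to 604 on the I3C diet. Of these 8, 1 (Cd86) was called with vehicle (1.59% of all genes) and 2 (Cd86 and Ltc4s) with papain (7.15%). Among the I3C papain libraries T106 was again the highest, and it was also the highest in Fcgr2b. In footpad epidermis before injection, the paper found by flow cytometry no significant difference in Langerhans cell numbers between diets. The 8 mast cell markers, of which Fcer1a and Ms4a2 are also counted among the Fc receptors above, summed to 8.21 to 22.6 CPM in the AhR-poor papain group, 3.08 to 7.46 in the AhR-poor vehicle group, 1.27 to 3.51 in the I3C papain group and 1.39 to 1.98 in the I3C vehicle group. Between diets, 7 of 8 were called higher with papain (7.15% of all genes) and 1 of 8 with vehicle (1.59%). All but Kit had at most 4 counts in any I3C library and passed the minimum count through the AhR-poor libraries, so nothing is read from these calls.

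Other cells were also represented unequally. Dermal fibroblast markers were called higher on the AhR-poor diet in 6 of 6 genes with either injection and summed to 93.2 to 166 CPM with vehicle and 245 to 607 with papain, against 9.39 to 13.3 and 2.14 to 11.4 on the I3C diet. Endothelial markers were called in 5 of 5 genes with either injection. The shares of all genes called higher were 7.15% with papain and 1.59% with vehicle. Natural killer cell markers, which can carry Fcgr3, summed to at most 3.17 CPM, with Ncr1 at 0 in 10 libraries, and 0 of 6 were called. B cell markers, which can carry Fcgr2b, summed to at most 4.34 CPM. Of these, 1 of 5 was called with papain, Cd79b, which had at most 1 count in any I3C library, and 0 with vehicle. T cell markers ranged from 12.7 to 56.3 CPM, and 1 of 6, Cd3d, was called higher with papain and 0 with vehicle. The part of these cells in the receptor differences was not tested.

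**Figure D5:**
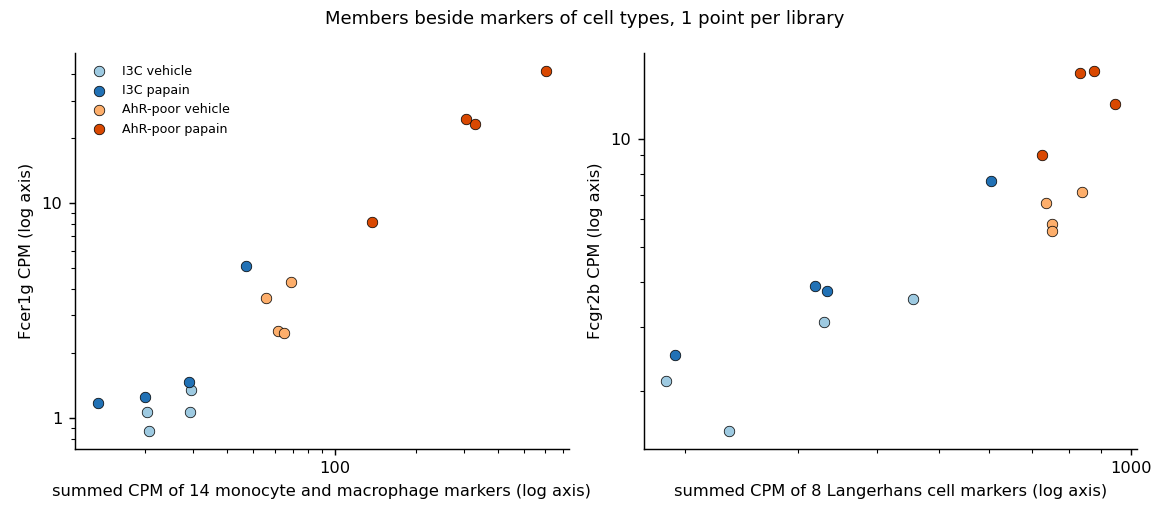
Fcer1g against the summed monocyte and macrophage markers (left) and Fcgr2b against the summed Langerhans cell markers (right), in CPM on log axes, 1 point per library coloured by group. The AhR-poor papain libraries lie at 138 to 604 CPM of monocyte and macrophage markers and hold the highest Fcer1g levels (8.13 to 41.1 CPM), and the I3C library with the most of either marker sum is T106.

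The genes whose log2 CPM was most like that of Fcgr4 over the 16 libraries, among 13026 genes with at least 1 CPM on average, were F630028O10Rik (Pearson r = 0.985), Fpr1, the formyl peptide receptor of phagocytes (0.984), A530064D06Rik (0.982), Ankrd33b (0.980) and Slfn1 (0.979). The group means were taken out to compare libraries within groups, and r was then 0.928, 0.896, 0.924, 0.888 and 0.837. Fcgr4 was at 0 in 11 of the 16 libraries, so these values rest on the 4 AhR-poor papain libraries and T106. Those most like Fcer1g were Hcls1, a leukocyte actin regulator (0.985), Pik3ap1 (0.984), Spata13 (0.983), Slfn5 (0.983) and Entpd1, the ectonucleotidase CD39 (0.983), with 0.920, 0.900, 0.922, 0.897 and 0.882 within groups. These values describe the libraries, which fall into the 4 groups and share their depth and cell makeup between genes.

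Within the family, Fcgr4 and Fcer1g were alike over the 16 libraries (Pearson r = 0.937) and within groups (0.944), which again rests on the 5 libraries with a count of Fcgr4. Fcgr3 and Fcgr2b, the related pair, were less alike, at 0.589 over all libraries and 0.399 within groups.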

How the data were processed

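Epidermal RNA from 16 mice, 4 per group, was sequenced from stranded mRNA libraries. The authors aligned reads to mm10 with STAR, used FastQC and DESeq2, and deposited raw counts per gene and library without normalization. The tool, annotation and strand setting of the counting are not given in the sources used here. The 3 sequencing units could not be assigned to libraries. GENCODE M21 gave a symbol for 50376 of the 50600 identifiers.

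The 22155 genes that reached 10 counts over all libraries were fitted in edgeR 4.0.16 (R 4.3.3) with TMM factors, a mean for each of the 4 groups and the robust quasi-likelihood test. Calls needed an adjusted p under 0.01 (Benjamini-Hochberg, over all tested genes) and an absolute log2 fold change over 1. CPM are counts scaled with TMM factors. Single genes were also compared with 2-sided exact permutation tests of log2 CPM. Folds against groups at 0 were computed against a floor of 3 counts per library. The model was tested on simulated data.

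The genes, gene lists and markers were chosen with earlier results of these data known. Named were the 5 family members, Syk, Inpp5d, Tyrobp, up to 3 called genes per list and comparison with the largest change and at least 1 CPM, the members of counts of 5 or fewer, and the 5 genes most like Fcgr4 and Fcer1g. Results were recomputed leaving out each library, with DESeq2 1.42.0, with RLE factors or none, with filterByExpr, a minimum of 1 count in total or of 10 in every library, without a minimum fold change, at an adjusted p under 0.05, and from the 8 compared libraries alone. Some genes that the naming rule selects are not reported here.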

Additional observations from a re-analysis of the deposited data

Results flagged for a closer look

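Of 17 groups of 4 libraries checked for a library far from the others by Dixon's criterion, 3 held one. Chance gives about 1 in 20 for normal values, but these are counts, and the groups share libraries between genes. In the I3C papain group, T106 stood apart in Fcer1g, at 5.115 CPM with the next library at 1.475, and in Fcgr4, at 0.2923 CPM with the others at 0. With the others at 0, any count of Fcgr4 in T106 would have been flagged. In the AhR-poor vehicle group, T100 stood apart in Fcgr3, at 2.724 CPM with the nearest at 4.302.

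Fcgr3 was higher in every papain than in every vehicle library on the AhR-poor diet and lower in every one on the I3C diet. On the AhR-poor diet the nearest libraries were at 4.54 CPM (T112, papain) and 4.42 CPM (T101, vehicle). These are papain comparisons, given as a description, and the share of all genes separated in this way was not computed. Their interaction term was 3.603 on the log2 scale, with an adjusted p of 0.0213 in edgeR.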

How the results depend on the processing

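Of 124 alternative counts of called members, all but 9 stayed within 1.5 times the count reported. Of 430 alternative values of single genes, 417 were taken as unchanged. For values with a test this meant the same direction and side of the threshold. For the papain comparisons and Fcgr4, which had no test, it meant the same direction and a shift smaller than the pooled SD of log2 CPM. Counting all 5 members, those called between diets with vehicle went from 0 to 1 with DESeq2, 2 with only the 8 libraries compared and 1 at an adjusted p below 0.05, and ranged from 0 to 1 when single libraries were left out (1 without T106, Fcgr2b). With papain they went from 4 to 2 with only the 8 libraries compared, where Fcgr2b and Fcer1g were lost, and ranged from 4 to 5 when single libraries were left out. A count of 5 includes Fcgr4, which chose the family and is given without a test. For the interaction they went from 0 to 1 with DESeq2 and at an adjusted p below 0.05, and ranged from 0 to 1 when single libraries were left out (1 without T106 or T112, Fcgr3). Fcgr3 between diets with vehicle turned to -0.042 without T111, within a range of -0.042 to 0.27. The cause of these changes was not tested, other than that fewer libraries entered some fits. The 124 counts include those of the papain comparisons, from which nothing is read. A minimum of 10 counts in every library left Fcgr1 and Fcgr4 out, and only the 8 libraries compared could not be used for the interaction. No paired analysis was possible because the library codes are not shared between groups. With vehicle, Fcgr1 and Fcgr4 were at or near the detection floor, so a diet difference in them was not detectable at this depth.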
